A study of Mus musculus with 6 samples.

Results

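The proteasome genes were the rows whose symbol is Psm, a letter from a to g and a number, which gave 48 of the 35869 genes listed in every library. Another pair of symbols starts with Psm and does not meet this rule, Psme2b and Psmc3ip, and they were not counted as members. Polyadenylated RNA was sequenced from mouse AML (acute myeloid leukaemia) cells made with the oncogenic fusion MLL-AF9, delivered by retrovirus, and grown in medium with SCF, IL6 and IL3. In every group Chaf1b was floxed and the oestrogen-activated recombinase CreERT2 was expressed; the product of Chaf1b is part of CAF-1, which loads histones onto new DNA. Libraries called knockout (KO, 3) were from cells treated with B-estradiol for 48 hours, and the 3 wild-type (WT) libraries from floxed, CreERT2-expressing cells given ethanol, so the ligand and the deletion cannot be told apart. The labels speak of leukaemic clones but do not say which clone, culture or animal each library came from, so the p-values measure the spread between these libraries, which may be technical.

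The proteasome is the protease that degrades proteins tagged with ubiquitin. Its 20S core is a barrel of a pair of outer alpha rings, which gate the entrance, and a pair of inner beta rings, in which Psmb5, Psmb6 and Psmb7 encode the subunits that cut. A 19S regulatory cap binds ubiquitin, removes it, and unfolds and feeds in the protein by means of a ring of ATPases. In blood cells, and in other cells after interferon, Psmb8, Psmb9 and Psmb10 encode subunits that take the places of the subunits that cut, and Psme1 and Psme2 encode the PA28 cap, which together make the immunoproteasome that supplies peptides for MHC class I. The 48 genes were divided by these roles into 14 genes of the constitutive core (7 alpha, 7 beta), 5 of the immunoproteasome, 17 of the 19S cap (6 ATPases, 11 others), 3 chaperones of cap assembly, 4 chaperones of core assembly, 3 other regulators and 2 tissue-specific core subunits.

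Each value is in TPM, a transcript abundance that corrects for transcript length and scales every library to the same total. TPM keeps no depth, so the counting error behind a value is unknown. A gene was tested if 3 or more libraries had it at 1 TPM or above, which 46 of the 48 met. The other two were the tissue-specific subunits: Psma8, of the testis proteasome, was listed at 0 in all 6 libraries, and Psmb11, of the thymus proteasome, at no more than 0.2 TPM. The targeted gene Chaf1b had 17.7, 14.4 and 14.2 TPM in KO against 48.6, 49.0 and 50.6 TPM in WT, and Trim13, the ubiquitin ligase named in the title of the series, had 6.5, 8.3 and 7.4 TPM in KO and 5.3, 5.4 and 4.9 TPM in WT.

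Replicate 1 of each group stood apart in the proteasome genes. KO replicate 1 held the highest KO value in 42 of the 46 tested genes, and WT replicate 1 held the lowest WT value, ties included, in 35 of 46. Both thus lay toward the other group. These positions were not counted over all tested genes, so they are not shown to be particular to the proteasome. Leaving both libraries out raised the calls over all tested genes from 2575 to 7569. The header of WT replicate 1 alone also speaks of a replacement, which no source used here explains. The labelled cell type was matched by its markers: Hoxa9, Hoxa10, Meis1, Kit, Ptprc, Itgam, Spi1 and Myb were all detected, with a summed level of 1042 to 1089 TPM in KO and 1037 to 1141 TPM in WT (2 of 8, Hoxa9 and Hoxa10, were called lower). Markers of maturing myeloid cells were higher in KO as sums, but not each by itself. The summed level of 7 neutrophil genes was 363 to 894 TPM in KO and 55.2 to 172 TPM in WT (3 of 6 tested were higher and none lower). That of 7 monocyte and macrophage genes was 1284 to 1594 TPM in KO and 1065 to 1149 TPM in WT (3 of 5 higher, none lower). The background for higher calls was 12.9%. S100a8 and S100a9 made up most of the neutrophil sum in KO. Most of the monocyte and macrophage sum was Ly6c2, at 1158.4 to 1411.4 TPM in KO and 992.1 to 1029.5 TPM in WT. Ly6g, Mmp9 and Adgre1 were highest of all libraries in WT replicate 1 (62.0, 14.9 and 75.8 TPM), and the groups overlapped for Cxcr2 and Cd68. These libraries are of bulk RNA, in which fewer cells of a type and less RNA per cell cannot be told apart, and the part of these markers in the proteasome values was not tested. Defining markers of other lineages were at 0 in every library for B cells (Ms4a1), T and NK cells (Cd8a, Cd4, Ncr1) and dendritic cells (Zbtb46, Siglech). The summed levels of the dendritic cell list were 11.2 to 20.1 TPM in KO and 2.7 to 4.0 TPM in WT, with 2 of 3 tested genes higher. Those of the B cell list were 26.5 to 32.0 and 17.0 to 20.7 TPM (2 of 2 higher), of the T and NK cell list 0.5 to 1.2 and 0 to 0.1 TPM (none tested), of the erythroid list 11.9 to 18.5 and 6.2 to 11.4 TPM (1 of 2 higher), and of the stromal and endothelial list 67.0 to 72.4 and 62.3 to 80.2 TPM (1 of 3 higher). None of these other lineage lists had a gene called lower.

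Of the tested proteasome genes 16 fell in KO, by small amounts, and 30 did not pass the test. Summed over the 48 genes, transcript came to 13799, 12680 and 12869 TPM in KO replicates 1, 2 and 3, while WT replicates 1, 2 and 3 summed to 14502, 15322 and 15227 TPM. Averaged, KO was at 13116 ± 599 TPM (SD, n = 3), which is 0.873 times the WT level of 15017 ± 449 TPM (SD, n = 3), and the groups did not overlap. Of the 46 tested genes 16 were lower in KO and none higher, by limma on log2(TPM + 1) at an adjusted p under 0.05. Over all 13575 tested genes the background for lower calls was 6.11%, and for higher calls 12.9%. Among tested genes averaging 100 TPM or more, where 35 of the members lie, the background for lower calls was 13.4%, and 15 of the 35 were called lower.

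The log2 fold change was below 0 for 45 of the 46 genes, with a median of -0.18 and a range from -0.41 to 0.08, against a median of 0.01 over all tested genes. It was below 0 for 48.9% of all tested genes and for 67.1% of those averaging 100 TPM or more. Every KO library lay below every WT library for 33 of the 46 genes and every KO library above every WT library for 1, where the backgrounds over all tested genes were 19.5% and 23.4%. Among the 35 members averaging 100 TPM or more, every KO library lay below every WT library for 28, where the background at that level was 34.2%. These counts did not rest evenly on the libraries. Without KO replicate 1 and WT replicate 1, 42 of 46 genes were called lower (background 27.3%), all 14 of the constitutive core and all 17 of the cap among them. These libraries were singled out by their place in the same genes, and leaving them out widens the gap between the groups, so that count is no independent support. Without KO replicate 1 alone the number was 27 (background 11.9%), and without WT replicate 1 alone 34 (background 14.2%). Without KO replicate 2, KO replicate 3, WT replicate 2 or WT replicate 3, limma called none of the 46. In the same order, these fits called only 109, 0, 25 and 15 of all 13575 tested genes. The lack of calls is thus no result about the members. An unadjusted limma p under 0.05 was reached by 20, 19, 21 and 21 of the 46, and by 3220, 3381, 3831 and 3886 of all 13575. The log2 fold change stayed below 0 for 44 to 45 of the 46 in these fits, and for 6240 to 6814 of all tested genes. With each library centred on its median, 27 genes were lower (background 13.6%), and with quantile normalization 9 (background 12.7%). Over all tested genes, higher calls made up 67.8% of calls with TPM as deposited, 46% with median centring and 43.9% with quantile normalization, while the proteasome genes gave no higher call under any of these.

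**Figure D1:**
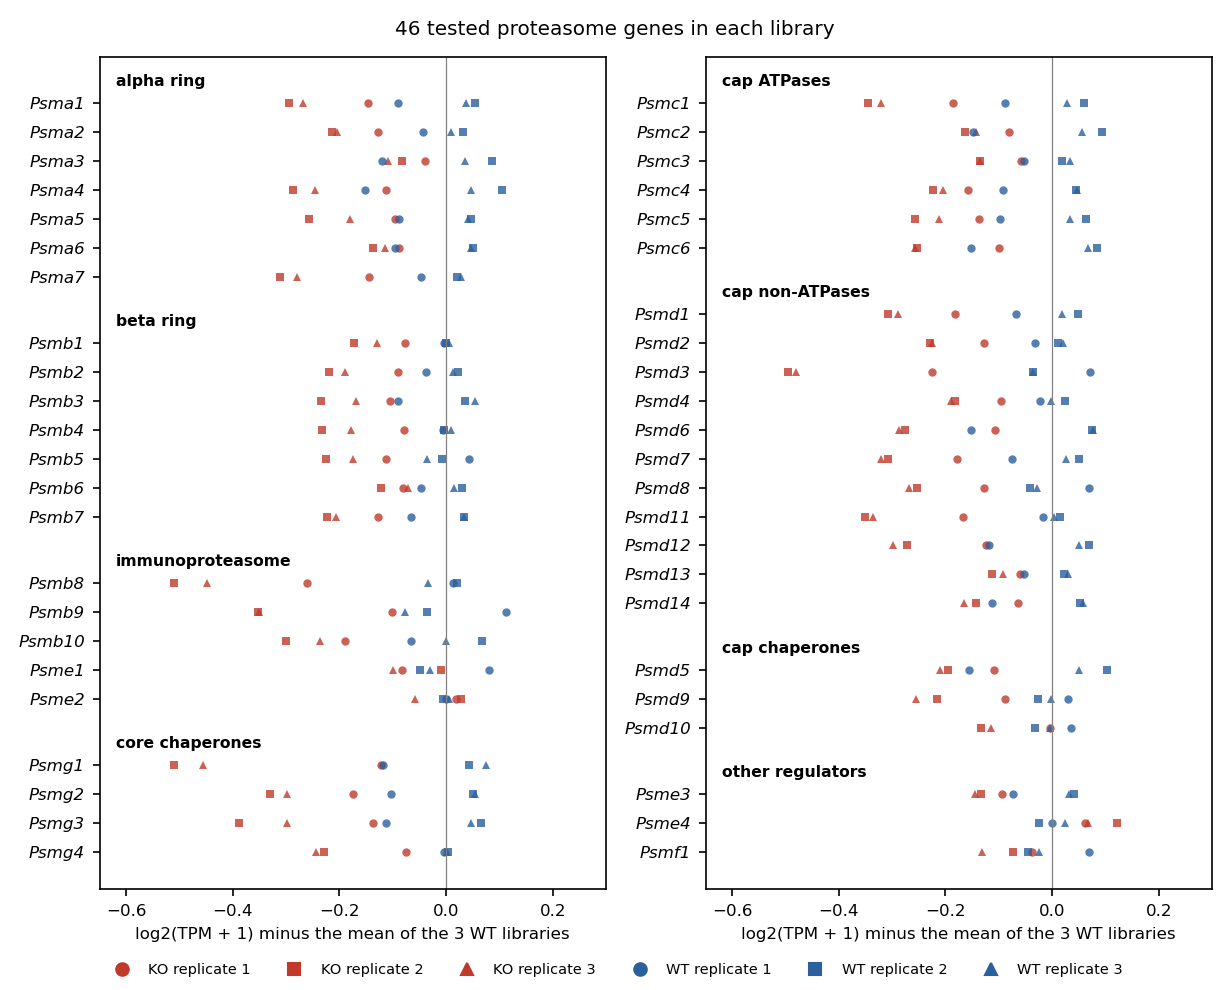
Level of the 46 tested proteasome genes in each library, as log2(TPM + 1) minus the mean of the 3 WT libraries (horizontal axis), with red for KO, blue for WT and a symbol for each replicate, ordered by role. KO replicates 2 and 3 lie to the left for nearly every gene, KO replicate 1 lies between them and WT for most, and Psme1, Psme2 and Psme4 do not follow this pattern.

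Of the 3 inducible subunits that cut, 2 fell, and neither PA28 gene was called; the groups of genes were not tested against each other. Psmb8, which encodes the inducible subunit of the chymotrypsin-like site, was at 528, 444 and 464 TPM in KO and 639, 643 and 619 TPM in WT. All 3 KO values were below all WT values, and Psmb8 fell by 0.41 on the log2 scale (SE 0.07, limma adjusted p = 0.019). This was the lowest value of the 46 genes with all libraries, but it lay within the SE of Psmd3 at -0.40. Without WT replicate 2 the order of these genes was reversed (-0.40 for Psmb8 and -0.42 for Psmd3). Nor was Psmb8 the lowest without KO replicate 1 or without WT replicate 1. Without both of these libraries Psmg1 was lowest (-0.54, against -0.47 for Psmb8). Psmb10, the inducible subunit of the trypsin-like site, was at 42.6, 39.4 and 41.2 TPM in KO and 46.5, 51.1 and 48.7 TPM in WT, and it fell by 0.24 on the log2 scale (SE 0.06, limma adjusted p = 0.038). Psmb9, the third inducible subunit, was at 75.8, 63.5 and 63.6 TPM in KO and 88.0, 79.4 and 77.1 TPM in WT. Its groups did not overlap either, though KO replicate 1 lay close to WT replicate 3, and it did not pass the test (log2 fold change -0.27, SE 0.09, limma adjusted p = 0.081).

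Psme1, the alpha subunit of PA28, was at 394, 414 and 389 TPM in KO and 441, 403 and 408 TPM in WT, and Psme2, the beta subunit, at 70.9, 71.4 and 67.2 TPM in KO and 70.0, 69.7 and 70.2 TPM in WT. Both overlapped between the groups, with log2 fold changes of -0.06 (SE 0.05, limma adjusted p = 0.40) and 0.00 (-0.0032, SE 0.05, limma adjusted p = 0.97). The value of Psme2 is uncertain, because 40.3% of the 100-base stretches of its transcripts in GENCODE M21 occur exactly in Psme2b, a near-identical copy on chromosome 11. Psme2b, named for this overlap after its values were seen, was called higher, at 16.9, 20.7 and 18.3 TPM in KO and 14.9, 12.8 and 13.9 TPM in WT (log2 fold change 0.40, limma adjusted p = 0.036). Of the 5 immunoproteasome genes, then, 2 were lower (background 6.11%) and none higher. Without KO replicate 1 and WT replicate 1, 3 were lower, where the background was 27.3%.

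**Figure D2:**
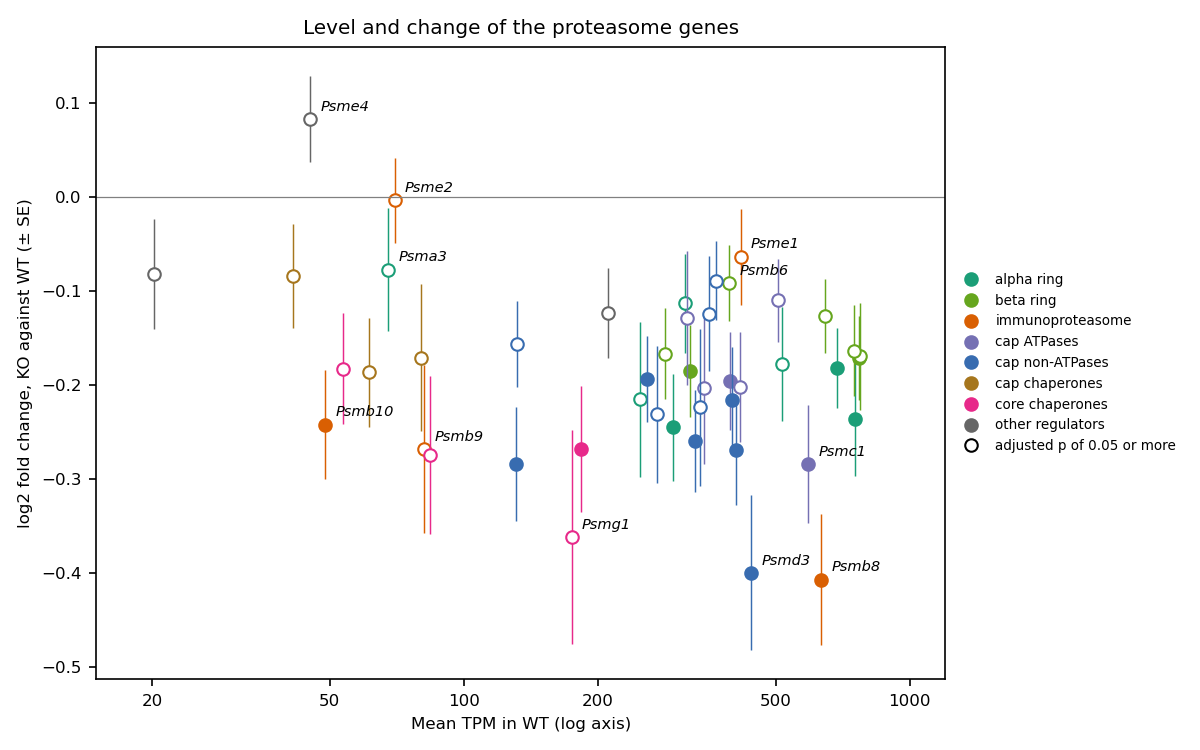
Log2 fold change of KO against WT (vertical axis, bars are SE) against the mean TPM in WT (horizontal, log axis) for the 46 tested genes, coloured by role; filled points passed an adjusted p of 0.05. Psmb8 at -0.41 and Psmd3 at -0.40 lie lowest, and Psme4 at 0.08 is the only gene above 0.

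Each inducible subunit was set against the constitutive subunit whose place it takes, as a ratio of TPM within a library, which does not depend on how the library was scaled. The ratio of Psmb8 to Psmb5 was 0.742, 0.676 and 0.681 in KO and 0.807, 0.840 and 0.825 in WT. The groups did not overlap, and the KO ratio was 0.849 times that of WT. The ratio of Psmb9 to Psmb6 was 0.204, 0.176 and 0.170 in KO and 0.231, 0.198 and 0.194 in WT, so that KO replicate 1 lay above WT replicates 2 and 3. The ratio of Psmb10 to Psmb7 was 0.145, 0.143 and 0.148 in KO and 0.152, 0.155 and 0.148 in WT, which touch between KO replicate 3 and WT replicate 3 and differ by a factor of 0.958. Exact two-sided permutation tests gave p = 0.1, 0.3 and 0.1 for these 3 ratios (adjusted over them, 0.15, 0.3 and 0.15), where 0.1 is the smallest value that 3 against 3 libraries can give. In WT the Psmb8 transcript thus stood at 0.824 ± 0.0164 (SD, n = 3) of the Psmb5 level, well above the ratios of the other pairs.

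**Figure D3:**
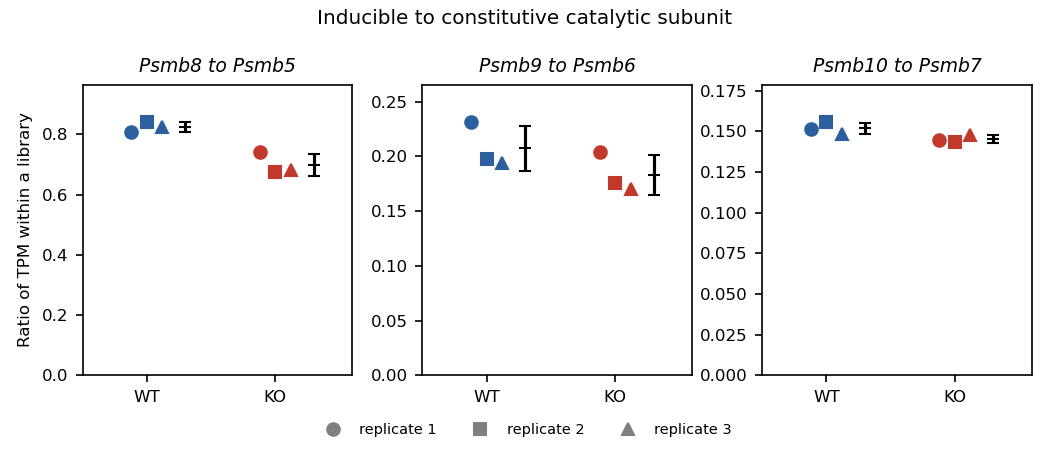
Ratio of TPM of each inducible to its constitutive catalytic subunit within each library (vertical axis from 0; symbols are replicates, bars are mean ± SD of 3 libraries). The Psmb8 to Psmb5 ratio separates KO (0.676 to 0.742) from WT (0.807 to 0.840), and the Psmb9 to Psmb6 ratio overlaps.

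Upstream sequences are shown for the genes at the centre of these comparisons: Psmb8, the inducible subunit with the lowest log2 fold change, Psmb5, its constitutive counterpart, and Psmb9, which is read away from the peptide transporter gene Tap1 from a stretch of 225 bases that both share. They are from RefSeq on GRCm38.p6 (the assembly that mm10 names), 5′ to 3′ on the strand of the named gene, and end at the base before its start site. Capitals mark matches to the motifs described next.
Psmb8, chr17:34197945-34198194, plus strand: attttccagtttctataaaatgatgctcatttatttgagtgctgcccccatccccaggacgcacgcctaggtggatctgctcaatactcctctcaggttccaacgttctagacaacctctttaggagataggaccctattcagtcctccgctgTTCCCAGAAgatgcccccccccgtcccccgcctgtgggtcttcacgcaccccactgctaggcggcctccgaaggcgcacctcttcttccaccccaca
Psmb9 to Tap1, chr17:34187331-34187555, minus strand: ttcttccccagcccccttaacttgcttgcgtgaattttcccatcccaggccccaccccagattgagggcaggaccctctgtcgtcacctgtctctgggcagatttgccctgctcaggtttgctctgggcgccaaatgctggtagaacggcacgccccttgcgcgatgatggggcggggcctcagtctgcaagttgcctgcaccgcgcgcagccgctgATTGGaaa
Psmb5, chr14:54617996-54618245, minus strand: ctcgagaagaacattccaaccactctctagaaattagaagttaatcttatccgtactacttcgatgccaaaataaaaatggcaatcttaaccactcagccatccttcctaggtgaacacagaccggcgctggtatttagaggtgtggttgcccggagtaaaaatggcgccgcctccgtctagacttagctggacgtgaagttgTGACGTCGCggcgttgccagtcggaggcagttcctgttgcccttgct

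In Psmb8 the capitals are a gamma-activated site (TTCNNNGAA), from 97 to 89 bases before the start. In Psmb9 they are a CCAAT box (CCAAT, bound by NF-Y) on the opposite strand, from 8 to 4 bases before the start. In Psmb5 they are a core of the antioxidant response element (TGACNNNGC, bound by NRF1 and NRF2 with small MAF proteins), from 47 to 39 bases before the start. In windows from 250 bases before to 50 bases after the start, on both strands, 43 windows of 40 members were matched. The gamma-activated site was in 6.98% of them and in 8.30% of all 32851 windows, the CCAAT box in 32.6% and 37.4%, and the antioxidant response element core in 14.0% and 12.4%. The interferon-stimulated response element core (GAAA, any 2 bases, GAAA) was in 11.6% of the members' windows, with Psme1 the only immunoproteasome gene among them, and in 3.44% of all windows. An NF-kappaB site was in 14.0% of the members' windows and 8.46% of all. A match is a run of letters and was not tested as a binding site, and the motifs may overlap.

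Psmb9 and Psmb8 lie with Tap1 and Tap2, which encode the transporter that carries proteasome products to MHC class I, in a block of 34292 bases on chromosome 17. The order is Psmb9 (34182030 to 34187330), Tap1 (34187556 to 34197225), Psmb8 (34198195 to 34201454) and Tap2 (34204479 to 34216321). Tap2 was at 367, 325 and 332 TPM in KO and 538, 448 and 445 TPM in WT, and it fell by 0.48 on the log2 scale (SE 0.09, limma adjusted p = 0.022). Tap1 was at 48.2, 46 and 44.5 TPM in KO and 57.9, 52.2 and 52.0 TPM in WT, which did not overlap and did not pass the test (log2 fold change -0.22, SE 0.06, limma adjusted p = 0.056). All 4 genes of the block had every KO library below every WT library. The background was 19.5% over all tested genes and 34.2% among those averaging 100 TPM or more, and the block was not tested as a unit. For Psmb9, 6.73% of its 100-base stretches also occur in annotated Tap1 transcripts, read on either strand, so the values of these neighbours are not fully separate where the counting did not use strand.

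Of the 21 genes of class I antigen processing and its inducers 20 were tested, with 1 higher, 2 lower and a median log2 fold change of 0.05. The backgrounds were 12.9% higher and 6.11% lower, so the counts are no result about the list. B2m, the light chain of MHC class I, rose from 734, 721 and 717 TPM in WT to 798, 836 and 811 TPM in KO (log2 fold change 0.17, SE 0.04, limma adjusted p = 0.029). Its call was lost with median centring (limma adjusted p = 0.068). The genes called lower were Tap2 and Irf8, a transcription factor of myeloid cells that was at 27.2, 14.5 and 15.9 TPM in KO and 46.6, 37.8 and 39.5 TPM in WT (log2 fold change -1.11, limma adjusted p = 0.028). Irf1, which is known to induce the immunoproteasome genes after interferon, was at 28.5, 27.3 and 25.7 TPM in KO and 21.5, 21.3 and 26.3 TPM in WT (limma adjusted p = 0.12). Nlrc5, the transactivator of MHC class I genes, was listed at no more than 0.2 TPM in any library and was not tested. Without KO replicate 1 and WT replicate 1 the list had 8 genes higher and 3 lower, where the backgrounds were 28.4% and 27.3%.

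In the constitutive core, 5 of 14 genes were lower and none higher, with a median log2 fold change of -0.17. The background for lower calls was 6.11% over all tested genes and 13.4% among those averaging 100 TPM or more. In the alpha ring, Psma7 was at 266, 237 and 243 TPM in KO and 285, 299 and 300.1 TPM in WT (log2 fold change -0.25, SE 0.06, limma adjusted p = 0.035). Psma1 fell by 0.24, from a WT mean of 754 ± 40.7 to a KO mean of 640 ± 35.7 TPM (SD, n = 3; limma adjusted p = 0.044), and Psma2 by 0.18, from 686 ± 18.4 to 604 ± 20.1 TPM (limma adjusted p = 0.036). The other 4 alpha genes had log2 fold changes from -0.21 to -0.08. Of these, Psma3, Psma4 and Psma6 overlapped between the groups, with WT replicate 1 below KO replicate 1 in each.

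All 7 beta ring genes had every KO library below every WT library, but only 2 passed the test. Among tested genes averaging 100 TPM or more, as all 7 do, the backgrounds were 34.2% and 13.4%. Psmb5, of the chymotrypsin-like site, was at 712, 658 and 681 TPM in KO and 792, 765 and 751 TPM in WT (log2 fold change -0.17, SE 0.05, limma adjusted p = 0.047). Psmb7, of the trypsin-like site, was at 294, 275 and 279 TPM in KO and 307, 329 and 329 TPM in WT (log2 fold change -0.19, SE 0.05, limma adjusted p = 0.048). Psmb6, of the caspase-like site, had the smallest difference of the ring, at 372, 361 and 374 TPM in KO and 381, 402 and 398 TPM in WT (log2 fold change -0.09, limma adjusted p = 0.15). The structural subunits Psmb2, Psmb3 and Psmb4 had log2 fold changes of -0.17, -0.17 and -0.16 with limma adjusted p = 0.059, 0.080 and 0.061. The calls of Psmb5 and Psmb7 were lost with quantile normalization (limma adjusted p = 0.054 and 0.090). So were those of Psma2, Psmc4, Psmd2, Psmd8 and Psmg2 in the other groups (limma adjusted p = 0.051, 0.085, 0.061, 0.0503 and 0.064).

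The levels of subunits that stand in equal number in the core were far from equal. In WT the means ran from 67.5 TPM for Psma3 to 754 TPM for Psma1 in the alpha ring, an 11.2-fold span that rests on Psma3 (the next lowest was Psma4 at 248 TPM), and from 282 TPM for Psmb2 to 774 TPM for Psmb3 in the beta ring, a 2.74-fold span. The 6 ATPases of the cap spanned 1.87-fold, from 316 TPM for Psmc2 to 590 TPM for Psmc1. Psma3, named after its values were seen, has 20.0% of its 100-base stretches in common with an annotated pseudogene, and the share was 27.5% for Psma5, 22.2% for Psmb5, 20.0% for Psmb7 (with the neighbouring gene Nek6) and 18.0% for Psmb3. How reads that match several genes were counted is not stated in the sources used, so the levels of these genes are uncertain. No stretch was shared for 28 of the 46 tested genes.

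In the 19S cap, 8 of 17 genes were lower and none higher, with a median log2 fold change of -0.20. All 17 average 100 TPM or more, where the background for lower calls was 13.4%. Psmd3, a scaffold subunit of the lid, was at 377, 313 and 316 TPM in KO and 463, 430 and 430 TPM in WT (log2 fold change -0.40, SE 0.08, limma adjusted p = 0.027). The lid subunits Psmd11 and Psmd7 fell by 0.28 and 0.27 (limma adjusted p = 0.029 and 0.030), and Psmd8 by 0.22 (limma adjusted p = 0.046). Psmd1 and Psmd2, the large scaffold subunits of the base, which dock ubiquitin shuttles, fell by 0.26 and 0.19 (limma adjusted p = 0.028 and 0.037). Psmd14, the deubiquitinase of the lid, was at 339, 321 and 316 TPM in KO and 328, 368 and 370 TPM in WT, with WT replicate 1 inside the KO range (log2 fold change -0.12, limma adjusted p = 0.19). Psmd4, a ubiquitin receptor, had a log2 fold change of -0.16 with no overlap (limma adjusted p = 0.059).

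Among the ATPases, which unfold the substrate, 2 of 6 were lower (background 13.4% among genes averaging 100 TPM or more). Psmc1 was at 518, 464 and 472 TPM in KO and 555, 615 and 601 TPM in WT (log2 fold change -0.28, SE 0.06, limma adjusted p = 0.031), and Psmc4 at 353, 337 and 342 TPM in KO and 370, 407 and 407 TPM in WT (log2 fold change -0.20, SE 0.05, limma adjusted p = 0.048). The other 4 had log2 fold changes from -0.20 to -0.11, and the groups overlapped for Psmc2 and Psmc6.

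The chaperones that assemble the core had the lowest median of any group of roles, -0.27, although 1 of 4 was called lower (background 6.11%). With quantile normalization the immunoproteasome had the lowest median, -0.232 against -0.228 for these chaperones. Psmg2 was at 162, 145 and 148 TPM in KO and 170, 189 and 190 TPM in WT (log2 fold change -0.27, SE 0.07, limma adjusted p = 0.041). Its partner Psmg1, named after its values were seen, was at 160.0, 122 and 127 TPM in KO and 160.3, 180 and 183 TPM in WT. Here KO replicate 1 was level with WT replicate 1, and the log2 fold change of -0.36 did not pass the test (SE 0.11, limma adjusted p = 0.070). Psmg3 and Psmg4, the other pair, had log2 fold changes of -0.27 and -0.18 with no overlap (limma adjusted p = 0.065 and 0.076).

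Of the chaperones of cap assembly none of 3 was called: Psmd9 had a log2 fold change of -0.19 with no overlap (limma adjusted p = 0.069), Psmd5 of -0.17 and Psmd10 of -0.08, both with overlap. None of the 3 remaining regulators was called, their median being -0.08 on the log2 scale. Psme3, which encodes the nuclear PA28 gamma cap, was at 197, 191 and 190 TPM in KO and 200, 216 and 215 TPM in WT (log2 fold change -0.12, limma adjusted p = 0.11). Psme4, the PA200 cap, was the 1 gene with every KO library above every WT library, at 47.3, 49.4 and 47.5 TPM in KO and 45.3, 44.5 and 46.1 TPM in WT (log2 fold change 0.08, limma adjusted p = 0.23). Psmf1, which encodes the regulator PI31, was at 18.3 to 19.6 TPM in KO and 19.5 to 21.2 TPM in WT.

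Proteins that work with the proteasome were compared as a list of 21, of which 20 were tested; Paaf1 was not analysed here. In this list 5 genes were lower and none higher (backgrounds 6.11% and 12.9%), the median log2 fold change being -0.13. Without replicate 1 of both groups 15 were lower and 2 higher, where the backgrounds were 27.3% and 28.4%. Adrm1, the ubiquitin receptor of the cap that the member rule does not reach, was at 145, 133 and 136 TPM in KO and 168, 164 and 161 TPM in WT (log2 fold change -0.25, SE 0.05, limma adjusted p = 0.023). The shuttle genes Ubqln1 and Rad23b fell by 0.34 and 0.26 (limma adjusted p = 0.038 and 0.043), while Ubqln2 and Ubqln4, of the same kind, were not called (log2 fold changes -0.23 and -0.12, limma adjusted p = 0.10 and 0.14). The call of Rad23b was lost with quantile normalization (limma adjusted p = 0.060). Sem1, a small subunit of the lid listed under its older symbol, averaged 885 ± 15.4 TPM over the KO libraries and 868 ± 16.5 TPM over the WT libraries (SD, n = 3; limma adjusted p = 0.58). Pomp, the chaperone that completes the core, was at 508, 480 and 475 TPM in KO and 511, 527 and 537 TPM in WT (log2 fold change -0.11, limma adjusted p = 0.13).

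In the list of 16 genes of ubiquitin supply and proteasome gene regulation, 2 were higher and 1 lower, with a median of -0.06, which are shares at the backgrounds of 12.9% and 6.11%. Nfe2l1 encodes NRF1, the transcription factor that raises proteasome genes when the protease is short, and needs cleavage by the product of Ddi2 and removal of sugars by that of Ngly1 to become active. Nfe2l1 was at 35.6, 28.6 and 29.0 TPM in KO and 46.9, 38.8 and 39.9 TPM in WT (log2 fold change -0.42, SE 0.11, limma adjusted p = 0.047). Ddi2 was at 92.4, 89.6 and 86.7 TPM in KO and 110, 105 and 105 TPM in WT (log2 fold change -0.25, SE 0.05, limma adjusted p = 0.024). In the other direction, Ngly1 was at 61.5, 74.0 and 67.3 TPM in KO and 49.2, 53.5 and 51.7 TPM in WT (log2 fold change 0.38, SE 0.08, limma adjusted p = 0.026), and Nfe2l2, which encodes NRF2, at 79.3, 96.2 and 87.8 TPM in KO and 61.2, 62.6 and 64.1 TPM in WT (log2 fold change 0.48, SE 0.08, limma adjusted p = 0.016). Ubb and Rps27a, which encode ubiquitin, were not called.

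**Figure D4:**
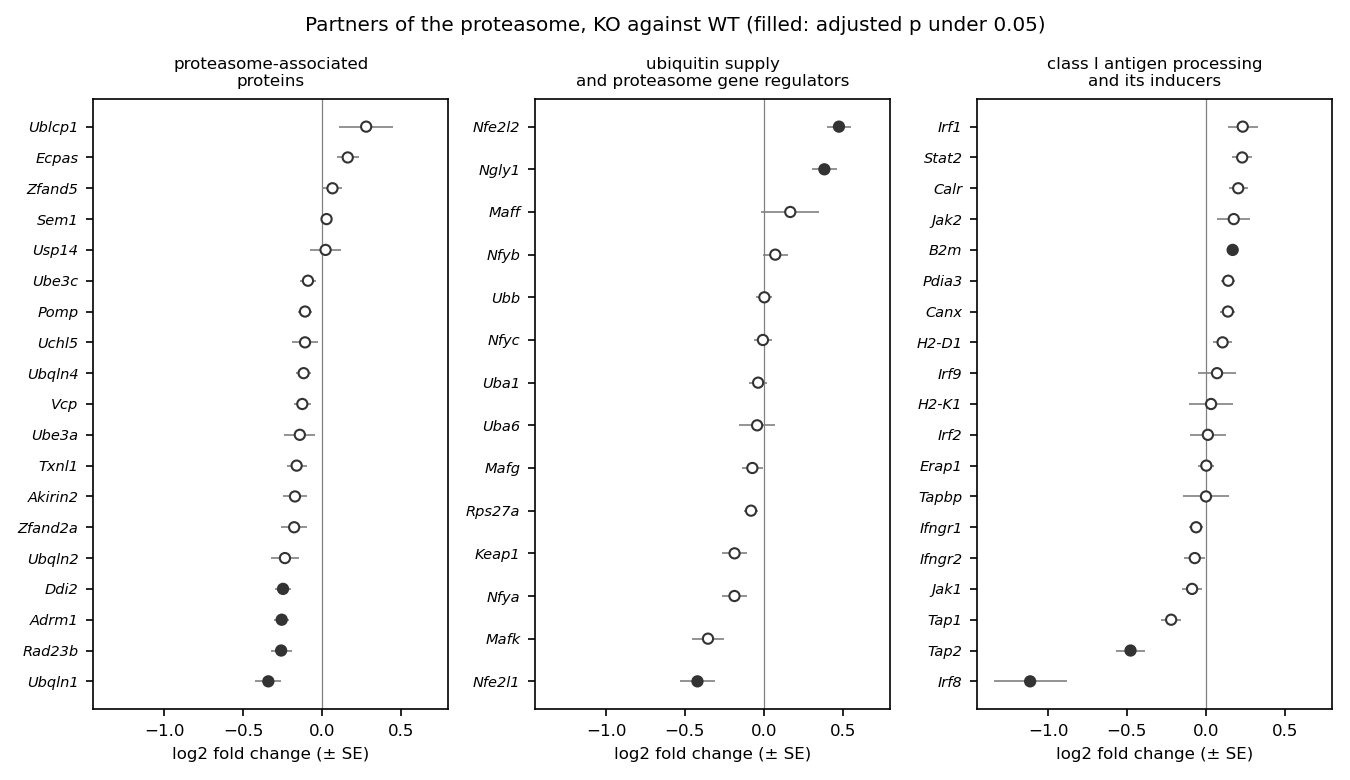
Log2 fold change of KO against WT (horizontal axis, bars are SE) for the genes of the 3 partner lists that are reported here, with filled points for an adjusted p under 0.05. Called genes of the proteasome-associated list all lie below 0, while the other lists hold called genes on both sides.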

How the data were processed

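The 6 libraries (3 KO, 3 WT) were grouped by genotype. Sequencing was of stranded poly(A) libraries with paired 100 bp reads, near 120 M for each sample, per the labels' protocols. The tools were featureCounts 1.6.2, STAR 2.6.1e, cutadapt 1.9.1 and Trim Galore 0.4.2, on mm10, per the submitters' processing notes; which annotation and strand setting were used, and how counts became TPM, is not given in the sources used. The authors deposited TPM by gene symbol (library sums 999924 to 999935), which hold no depth.

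The 13575 genes at 1 TPM or above in 3 or more libraries were compared on log2(TPM + 1), a scale that understates changes of low genes, with limma 3.58.1 (R 4.3.3): a genotype term, empirical Bayes with a trend of variance on level, and two-sided p-values adjusted by Benjamini-Hochberg over all tested genes. The fit was tested on simulated data, where it recovered 6% of 1.15-fold changes and 80% of 1.5-fold changes, and 5.33% of its calls were false. The simulation changed only 50 genes at each size of change, whereas 2575 genes were called in the data. These shares thus need not hold for the proteasome genes. Among these, Psma2 and Psmb5 were called with KO means at 0.881 and 0.888 times the WT means. Alternatives were other pseudocounts, filters and scalings, no trend, a replicate block and leaving out libraries. Named genes were the immunoproteasome and catalytic subunits, called members, the members of each role with the smallest p or highest level, and, of each partner list, up to 4 called genes in each direction, with Pomp, Nfe2l1, Tap1, Tap2, Nlrc5 and Irf1; genes named beyond these were chosen after their values were seen. Some genes that the rule or the lists hold are not reported here. Members and lists were chosen with earlier results of these data known. Names, positions and promoters came from RefSeq (GRCm38.p6) and transcripts from GENCODE M21; all 48 members matched a position and 40 a promoter.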

Additional observations from a re-analysis of the deposited data

How the results depend on the processing

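Depth is unknown for TPM, so counting error could not be set beside any value. Most of the differences among proteasome genes are below 1.25-fold, and 3 libraries a group leave many of them just on either side of the threshold. Over 448 values of 28 named proteasome genes under the alternatives, 316 kept direction and side of the threshold, 106 lost the call, 24 gained it and 2 changed sign. Other filters, no trend and the replicate block leave a gene's log2 fold change as it is and can only move its call. These counts thus cannot compare the steadiness of direction with that of the calls. Both sign changes were of the log2 fold change of Psme2: 0.028 with quantile normalization, and, leaving out 1 library at a time, a range of -0.019 to 0.024, above 0 without KO replicate 3. Same-numbered libraries did not deviate together from their group means (r = -0.199, -0.145 and -0.164 across tested genes, which are not independent). Libraries of different numbers gave values of like size, such as 0.232 (KO replicate 1 and WT replicate 3) and -0.206 (KO replicate 2 and WT replicate 3). Deviations from a mean of 3 libraries constrain each other, so these values cannot decide whether the numbers pair the libraries. With the replicate block, limma called 333 genes in all, 33 of them lower, and 0 proteasome genes. That means 0 of the core, 0 of the immunoproteasome and 0 of the cap. An unadjusted limma p under 0.05 was reached by 24 of the 46, and by 4223 of all 13575 tested genes. Leaving out 1 library at a time, calls ranged from 0 to 4850 over all genes, 0 to 34 for the proteasome, 0 to 10 for the core, 0 to 3 for the immunoproteasome and 0 to 17 for the cap. Without KO replicate 1 and WT replicate 1 there were 7569 calls in all, 42 in the proteasome, 14 in the core and 17 in the cap. With a mean of at least 5 TPM as the filter, 1578 of 10041 genes were called in all, 695 of them lower, and 3 in the core. With no filter 3397 of 22884 were called, 667 of them lower, and 2 in the core. Median centring gave 27 proteasome calls and 8 in the core, and quantile normalization 9, with 2 in the core and 5 in the cap. Without the mean-variance trend limma called 2257 of 13575 genes, 579 of them lower. Of the proteasome genes 7 were called, 0 of them in the core and 5 in the cap. The causes were not tested. The 3 catalytic ratios kept their direction under every alternative run, although the replicate block could not have changed it.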
